A study of Mus musculus with 2 samples.

Results

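The white and brown adipocyte identity genes examined here were 10 genes taken by name from the 55536 Ensembl genes of the deposited gene tables: Adipoq, Cfd, Plin1, Plin4, Car3, Cidec and Pck1, which are known from both kinds of fat, Retn, which is known from white fat, and Ucp1 and Cidea, which are known from brown fat. All 10 were matched and all had counts in both libraries. They were picked because earlier results of these data showed them apart between the libraries, so the differences below are descriptions without a test. The tissue was heart of adult female B6CASTF1/J mice, a hybrid strain, aged 18 to 20 months, and total RNA was sequenced from an input of 300 ng with ERCC spike-ins, synthetic RNAs added in known amounts. There was 1 group, with no treatment named and biological replicates 1 and 2. The labels name a separate biosample for each library but 1 donor entry for both, so the spread between the libraries may be technical in part.

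Adipocytes store triglyceride in lipid droplets and release it as fatty acids when hormones call for it. White adipocytes hold 1 large droplet and secrete hormones into the blood. Brown adipocytes hold many small droplets and many mitochondria, and they burn fatty acids for heat through the uncoupling protein of their inner mitochondrial membrane. Fat depots of both kinds occur around the heart and the great vessels of the mouse, while cardiomyocytes themselves burn fatty acids and carry a droplet machinery of their own.

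The promoters of 5 members are shown because these genes span the kinds of fat and the range of differences between the libraries: Ucp1 for brown fat, Adipoq for both kinds, Retn for white fat, Pck1 with the highest ratio and Plin4 with the lowest. Each is the 250 bases before the gene's start from RefSeq, build GRCm38.p6, written 5′ to 3′ on the gene's strand, and capitals mark the motif matches named after them.
Ucp1, chr8:83290098-83290347, plus strand: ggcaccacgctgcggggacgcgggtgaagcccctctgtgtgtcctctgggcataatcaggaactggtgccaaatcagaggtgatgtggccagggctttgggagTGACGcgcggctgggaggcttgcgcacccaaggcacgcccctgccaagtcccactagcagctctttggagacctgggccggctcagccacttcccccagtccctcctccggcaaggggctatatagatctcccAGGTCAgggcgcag
Pck1, chr2:173152823-173153072, plus strand: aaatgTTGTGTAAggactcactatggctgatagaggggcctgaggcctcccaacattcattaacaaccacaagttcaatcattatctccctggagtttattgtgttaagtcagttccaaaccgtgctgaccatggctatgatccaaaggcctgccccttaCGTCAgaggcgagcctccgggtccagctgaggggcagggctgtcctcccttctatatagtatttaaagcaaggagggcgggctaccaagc
Adipoq, chr16:23146286-23146535, plus strand: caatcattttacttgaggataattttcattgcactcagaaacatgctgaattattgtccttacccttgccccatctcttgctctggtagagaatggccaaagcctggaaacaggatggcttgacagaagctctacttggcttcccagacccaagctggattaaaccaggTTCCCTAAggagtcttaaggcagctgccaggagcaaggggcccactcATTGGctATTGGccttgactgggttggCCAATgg
Retn, chr8:3655520-3655769, plus strand: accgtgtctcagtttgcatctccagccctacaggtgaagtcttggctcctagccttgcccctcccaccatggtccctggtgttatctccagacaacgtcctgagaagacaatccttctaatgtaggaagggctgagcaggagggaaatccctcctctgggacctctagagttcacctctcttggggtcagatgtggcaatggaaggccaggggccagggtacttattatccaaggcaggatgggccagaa
Plin4, chr17:56109783-56110032, minus strand: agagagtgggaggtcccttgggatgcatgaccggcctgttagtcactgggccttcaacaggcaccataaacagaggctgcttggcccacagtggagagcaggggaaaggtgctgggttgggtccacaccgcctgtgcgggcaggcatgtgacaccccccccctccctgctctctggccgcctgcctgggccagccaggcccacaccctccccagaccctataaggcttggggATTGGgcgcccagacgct

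The 5 motifs searched, on both strands and with overlaps allowed, were the TATA box TATAAA, the nuclear receptor motif AGGTCA, the core TGACG of the cyclic AMP response element, the CCAAT box CCAAT and the C/EBP motif TTNNGNAA. RefSeq promoters were used for 8 members, in 9 windows because Cidec had a pair of starts. TTNNGNAA occurred in 5 of 9 windows, against 36.8% of the 32851 promoters of that length. CCAAT occurred in 2 of 9 against 33.8%, TGACG in 2 of 9 against 17.8%, AGGTCA in 1 of 9 against 14.02%, and TATAAA in 0 of 9 against 12.4%. In Ucp1 the AGGTCA match lay at -14 to -9 and the TGACG match at -147 to -143, where -1 is the base just before the start. Pck1 had its TGACG match at -90 to -86, and Adipoq had 3 CCAAT matches between -34 and -3. The windows of Retn and Cfd held none of the 5 motifs. These matches describe letters in the windows and are not binding sites.

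Expected counts, the authors' estimated reads per gene, totalled 35897521 in replicate 1 and 36926429 in replicate 2. The floor, 3 counts, corresponded to 0.0836 CPM in the first library and 0.0812 CPM in the second. Levels are given as TPM, the share of transcripts scaled to a fixed total after correction for their length, and CPM is the same share for counts without that correction. Replicate 2 stood apart from replicate 1 in markers of several other tissues. All 7 airway markers were 2-fold or more higher there, summing to 1.02 and 303.03 TPM, led by Bpifa1 and Scgb3a1. All 8 lymphocyte markers were too, with 8.18 and 119.69 TPM, led by Igkc and Cd79b. Of 7 atrial markers 5 were 2-fold or more higher, led by Nppa and Myl4. The 7 erythroid markers, led by Hbb-bs and Hba-a1, were all 2-fold or more lower, with 23412 and 11151 TPM. Cardiomyocyte markers, led by Myl2 and Myh6, summed to 41942 and 40076 TPM, with 0 of 8 at 2-fold. Alb, Serpina1c and Fgb of the liver and Myh2, Myh4 and Myog of skeletal muscle had 0 counts in both, Ttr had 0.59 and 0.63 TPM and Apoa1 0 and 1 counts. Acta1, which heart also expresses, had 172.99 and 149.61 TPM and Tnnt3 7 and 5 counts. The part of these other tissues in the levels of the adipocyte genes was not tested.

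All 10 adipocyte genes were higher in replicate 2, and together they summed to 109.3 TPM in replicate 1 and 536.9 TPM in replicate 2. On the scale of log2(TPM + 0.1), their median ratio of replicate 2 over replicate 1 was 3.14, with a range from 0.42 for Plin4 to 3.96 for Pck1. At least a 2-fold higher level in replicate 2 was seen in 9 of the 10 genes, and in 2.77% of 11341 nuclear protein-coding genes whose mean was 1 TPM or above. A level at least 2-fold lower was seen in 0 of 10 and in 0.6% of the genes. The median ratio of all these genes was 0.021, 53.8% of them were higher in replicate 2, and 95% lay between -0.61 and 1.05. At 4-fold or more there were 8 of 10 members and 0.882% of the genes, and at 8-fold or more 6 of 10 and 0.317%. Since the genes were chosen on this difference, these counts describe the choice and nothing is read from them. In bulk tissue fewer fat cells and less RNA per fat cell cannot be told apart.

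**Figure D1:**
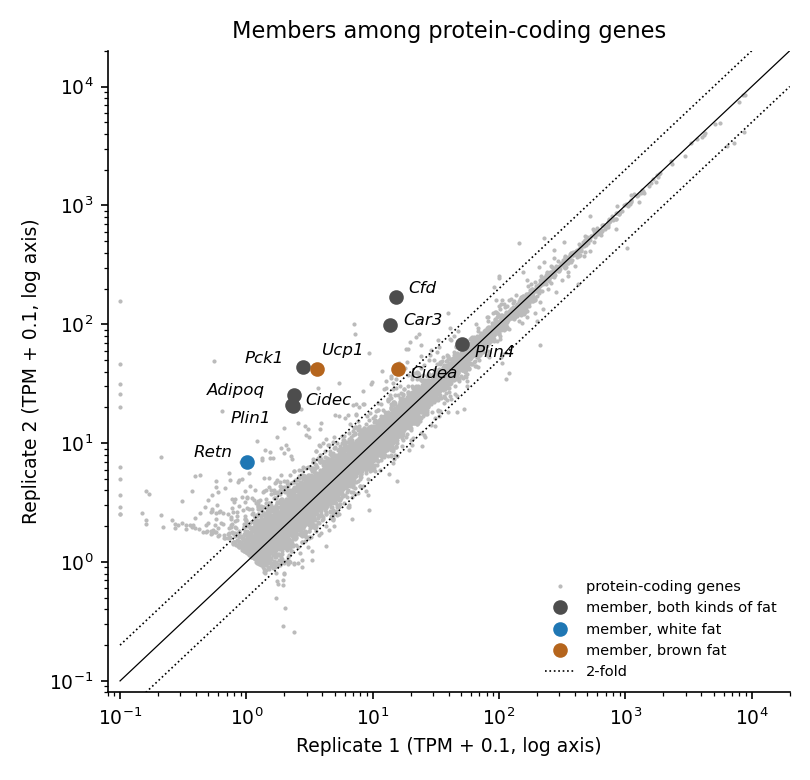
Level of each nuclear protein-coding gene with a mean of 1 TPM or more (grey, 11341 genes) in replicate 1 (x axis) and replicate 2 (y axis), both as TPM + 0.1 on log axes, with the members coloured by the kind of fat they are known from. The solid line marks equal levels and dotted lines 2-fold. All members but Plin4 lie above the upper dotted line.

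Cfd was the most abundant adipocyte gene of replicate 2. It encodes adipsin, complement factor D, a serine protease that fat cells secrete (ENSMUSG00000061780.6, mm10 chromosome 10, 79890853 to 79892655). Its level was 15.1 TPM in replicate 1, from 343 counts, and 169.35 TPM in replicate 2, from 4055 counts. The authors' credibility intervals, 13.3 to 16.4 TPM and 160.6 to 170.7 TPM, did not overlap. Scaled to library totals, the count fold was 11.5 (exact 95% interval 10.3 to 12.9). Such intervals cover counting error only and not the spread between samples.

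Adipoq encodes adiponectin, the hormone of fat cells that raises insulin sensitivity (ENSMUSG00000022878.5, chromosome 16, 23146536 to 23158028). It had 2.28 TPM from 60 counts in replicate 1 and 25.1 TPM from 722 counts in replicate 2, a count fold of 11.7 (8.98 to 15.5). The interval of its fold held the fold of Cfd. The ratio of Adipoq to Cfd in TPM was 0.151 in replicate 1 and 0.148 in replicate 2, so the proportion of these transcripts was nearly equal in both libraries.

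Plin1, the perilipin that guards the droplet surface of fat cells against lipases (ENSMUSG00000030546.14, chromosome 7, 79720218 to 79732903), had 2.26 TPM from 119 counts in replicate 1 and 20.3 TPM from 1048 counts in replicate 2. Cidec, which fuses droplets into a large one (ENSMUSG00000030278.11, chromosome 6, 113424634 to 113435760), had 2.21 TPM from 76 counts and 20.7 TPM from 785 counts. Both droplet genes were low in replicate 1 and at about 20 TPM in replicate 2. Their count folds were 8.56 (7.08 to 10.4) for Plin1 and 10.04 (7.93 to 12.9) for Cidec, and Plin1 over Cidec in TPM was 1.02 in replicate 1 and 0.980 in replicate 2.

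Plin4, a perilipin of small nascent droplets (ENSMUSG00000002831.13, chromosome 17, 56100591 to 56109803), differed from the other members. It had 50.9 TPM from 8042 counts in replicate 1 and 68.0 TPM from 11325 counts in replicate 2. Its count fold was 1.37 (1.33 to 1.41), the lowest of the 10, and it was the most abundant member of replicate 1, with 46.6% of the members' summed TPM. In replicate 2 its share was 12.7%.

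Car3, the carbonic anhydrase of fat and slow muscle (ENSMUSG00000027559.5, chromosome 3, 14863512 to 14872523), had 13.7 TPM from 604 counts and 99.3 TPM from 4610 counts, a count fold of 7.42 (6.81 to 8.09). Pck1, the cytosolic enzyme that makes phosphoenolpyruvate for glycerol and glucose synthesis (ENSMUSG00000027513.11, chromosome 2, 173153048 to 173159273), had 2.71 TPM from 178 counts and 43.6 TPM from 3280 counts. Its count fold of 17.9 (15.4 to 20.9) was the highest among the members. Its exact interval overlapped that of Adipoq and lay above those of the other 8.

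Retn encodes resistin, a hormone that white fat secretes in the mouse (ENSMUSG00000012705.16, chromosome 8, 3655770 to 3660110). It was the lowest member in both libraries, with 0.92 TPM from 20 counts in replicate 1 and 6.89 TPM from 158 counts in replicate 2. Its count fold was 7.68, with an interval from 4.81 to 12.9 that holds the folds of 6 of the other members.

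Ucp1, the uncoupling protein of brown fat (ENSMUSG00000031710.4, chromosome 8, 83290352 to 83298452), had 3.52 TPM from 151 counts in replicate 1 and 41.8 TPM from 1892 counts in replicate 2. The credibility intervals were 2.90 to 3.99 TPM and 39.1 to 42.8 TPM, and the count fold was 12.2 (10.3 to 14.5). Cidea, a droplet protein and transcriptional mark of brown and beige fat (ENSMUSG00000024526.9, chromosome 18), had 15.7 TPM from 444 counts and 41.8 TPM from 1249 counts. Its count fold was 2.73 (2.45 to 3.05). By these values the brown fat genes stood at the same level in replicate 2, while in replicate 1 Ucp1 was at 0.225 of the level of Cidea.

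**Figure D2:**
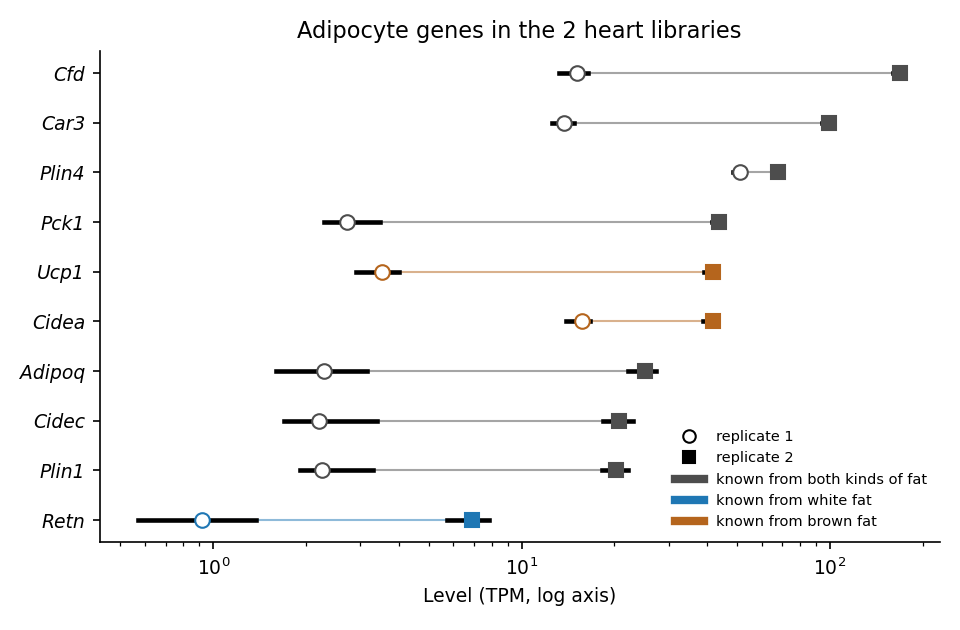
Level of each adipocyte gene in TPM (log x axis) in replicate 1 (open circles) and replicate 2 (filled squares), coloured by the kind of fat it is known from, with the authors' credibility interval of the posterior TPM as a black bar. Cfd reaches 169.35 TPM in replicate 2, and Plin4 is the member whose symbols lie closest together.

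The order of the members differed between the libraries. In replicate 1 it ran from Plin4 through Cidea, Cfd and Car3 to Ucp1, Pck1, Adipoq, Plin1, Cidec and Retn. The credibility intervals of Cidea and Cfd overlapped, as did those of Cfd and Car3, and Ucp1, Pck1, Adipoq, Plin1 and Cidec all overlapped each other. In replicate 2 Cfd led, followed by Car3, Plin4, Pck1, Ucp1 and Cidea, then Adipoq, Cidec, Plin1 and Retn. There the intervals of Pck1, Ucp1 and Cidea overlapped, as did those of Adipoq, Cidec and Plin1. Cfd took 13.8% of the members' summed TPM in replicate 1 and 31.5% in replicate 2, Pck1 2.48% and 8.13%, Ucp1 3.22% and 7.79%, and Cidea 14.3% and 7.78%. Some proportions were close in both libraries. Ucp1 over Cfd was 0.233 and 0.247, Ucp1 over Adipoq was 1.54 and 1.66, and Car3 over Retn was 14.9 and 14.4. These pairs were picked out after the ratios were seen.

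The fold of the brown fat genes was then set against that of the other members. The mean log2 ratio was 2.47 over Ucp1 and Cidea, 2.91 over the 7 genes of both kinds of fat and 2.78 for Retn. The brown genes were thus 0.44 lower than the shared genes and 0.30 lower than Retn. The means hide a split, since Ucp1 had 3.53 and Cidea 1.41, and Plin4 pulled the shared mean down. With Ucp1 alone the difference from the shared genes was 0.62 in the other direction, and without Plin4 among the shared genes it was -0.86. With a pseudocount of 1 TPM in place of 0.1 the brown genes were 0.26 above Retn.

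Gene by gene, Ucp1 and the shared genes did not form separate groups. For 16 pairs of a brown gene and another member, the ratio of their count folds was taken with an exact 95% interval for counting error. The fold of Ucp1 was close to that of Adipoq, with a ratio of 1.04 (0.749 to 1.43), and to that of Cfd, with 1.06 (0.866 to 1.30). Against Cidec the ratio was 1.21 (0.897 to 1.63) and against Retn 1.59 (0.916 to 2.62), and both intervals hold 1. Ucp1 had the larger fold against Plin1, with 1.42 (1.10 to 1.84), against Car3, with 1.64 (1.36 to 1.99), and against Plin4, with 8.90 (7.51 to 10.6). Its fold was smaller than that of Pck1, with a ratio of 0.680 (0.540 to 0.857).

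Cidea was below most members. Its fold was smaller than those of 7 of the 8 others, from a ratio of 0.153 (0.126 to 0.184) against Pck1 to one of 0.369 (0.321 to 0.424) against Car3. Against Retn, the white fat gene, it was 0.356 (0.209 to 0.578). Its fold exceeded that of Plin4 alone, with a ratio of 2.00 (1.78 to 2.24). Plin4 and Cidea were also the most abundant members of replicate 1. The difference in TPM between the libraries was 26.1 for Cidea, 17.1 for Plin4, 38.3 for Ucp1 and 22.85 for Adipoq. Over all members it ran from 5.97 for Retn to 154.25 for Cfd, a wide range that Cidea and Plin4 lay inside. Nothing is read from their place in it.

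**Figure D3:**
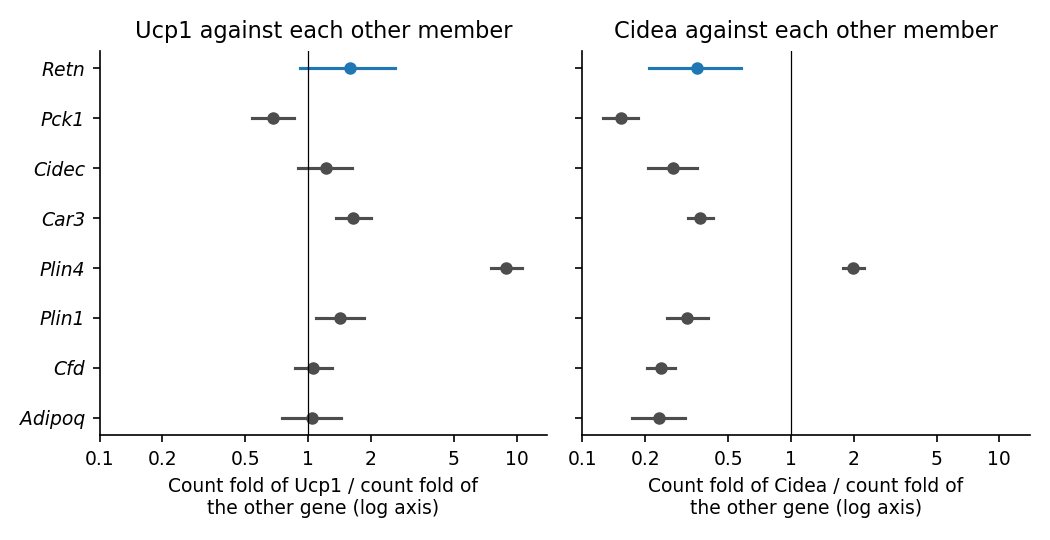
Count fold of Ucp1 (left) and of Cidea (right) divided by the count fold of each other member (log x axis), with exact 95% intervals for counting error as bars, grey for genes of both kinds of fat and blue for Retn. The intervals of Ucp1 against Adipoq, Cfd, Cidec and Retn hold 1, and those of Cidea lie below 1 except against Plin4.

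Other genes known from brown or white fat were read from lists. Of 22 other genes linked with brown fat, 7 were at least 2-fold higher in replicate 2 and 0 at least 2-fold lower, and the median log2 ratio was 0.37. Like the lists that follow, this one was not filtered by level, and among all 16768 protein-coding genes with any TPM 6.05% were 2-fold or more higher. Elovl3, which lengthens fatty acids in brown fat, had 3 and 98 counts, a count fold of 31.8 (10.6 to 157). Otop1, a proton channel of brown fat, had 0.21 and 2.04 TPM, and Slc27a2, a fatty acid activating enzyme, 0.18 and 1.35 TPM. The most abundant members of the list, which heart muscle itself uses, were level. Fabp3 had 2285 and 2350 TPM, Cox8b 1173 and 1250 TPM and Cox7a1 1107 and 1097 TPM. Pdk4, which restrains pyruvate oxidation, was not level, with 143 and 482 TPM. Prdm16, a brown fat regulator, was lower in replicate 2, with 7.20 and 4.06 TPM, and Sirt3 had 25.8 and 24.1 TPM. Of the factors that mark brown fat lineages, Zic1 had 1 and 0 counts and Lhx8 0 and 2 counts, which is within the floor, and Ebf2 had 1.42 and 2.01 TPM.

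Clstn3, a calsyntenin gene whose locus also gives a brown fat form, had 0.21 and 3.19 TPM, a log2 ratio of 3.41. Its counts were 23 and 116, a fold of 4.90 (3.11 to 8.04), and thus less than the TPM. A short transcript of 728 nt had 0 counts in replicate 1 and 46.7 in replicate 2, where it took 79.1% of the gene's TPM, and 76.1% in the kallisto-layout table. In replicate 1 a long form of 4014 nt took 87.4%. This transcript was picked out after its values were seen.

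Of 10 other genes linked with white fat, 0 were 2-fold or more apart in either direction on the scale of log2(TPM + 0.1). The median log2 ratio was 0.053. Most of them were low, where the added 0.1 TPM shrinks a ratio. By counts, Slc7a10 had 5 and 17, a fold of 3.31 (1.17 to 11.5). Nnat had 6 and 3, a fold of 0.486 (0.0787 to 2.28). Lep, the white fat hormone leptin, had 3 counts in replicate 1 and 4 in replicate 2, a count ratio of 1.30 with an interval from 0.219 to 8.85. Hoxc8, Hoxc9 and Hoxc10, position genes of some white depots, had 0 counts in both libraries. Agt had 2.42 and 3.57 TPM, Wt1, which mesothelium also expresses, 2.00 and 2.63 TPM, Mest 2.16 and 2.10 TPM and Trim14 0.86 and 1.17 TPM. The interval of Lep holds 1 and, for counting error, ends below the intervals of Adipoq, Cfd, Pck1 and Ucp1. It overlaps the intervals of the other members, Cidec included.

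Among 20 other genes of both kinds of adipocyte, 12 were at least 2-fold higher in replicate 2, 0 at least 2-fold lower, and the median log2 ratio was 1.08. Cdo1, which breaks down cysteine, had 3.6 and 29.1 TPM, Lgals12, a galectin of fat droplets, 0.12 and 1.32 TPM, and Gpd1, which makes glycerol phosphate, 18.8 and 62.4 TPM. Adig, a small protein of adipocyte differentiation, had 1.23 and 7.37 TPM, and Adrb3, the adrenergic receptor of fat, 0.30 and 1.57 TPM. The most abundant genes of the list differed less, with 207 and 301 TPM for the fatty acid carrier Fabp4 and 139 and 147 TPM for Dgat2, which makes triglyceride. Sncg had 5.99 and 4.51 TPM and Nrip1 9.54 and 7.71 TPM. Fabp4 and Dgat2 are also expressed outside fat, as are Pparg and Lipe.

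**Figure D4:**
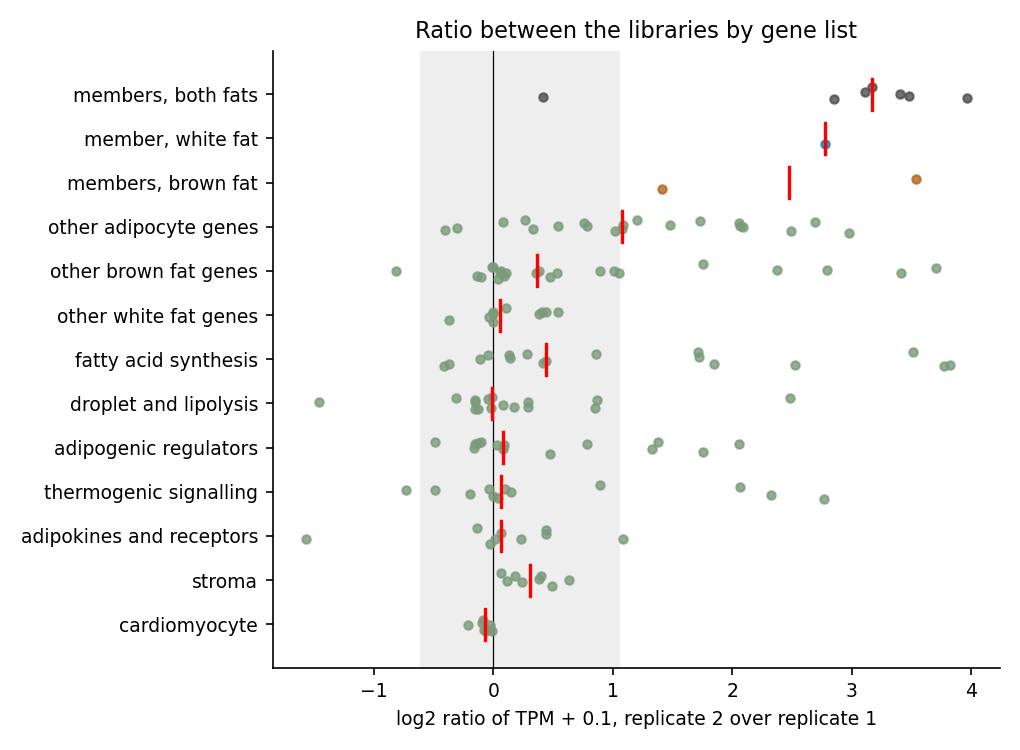
Ratio of replicate 2 over replicate 1 on the scale of log2(TPM + 0.1) (x axis) for each gene of the lists drawn (rows); red bars are medians and the grey band holds 95% of 11341 protein-coding genes. The members lie mostly right of the band, while the medians of the other lists drawn, except that of the other adipocyte genes at 1.08, lie within it; vertical scatter has no meaning.

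The enzymes and regulators around the members were uneven. In fatty acid synthesis 7 of 17 genes were at least 2-fold higher in replicate 2 and 0 at least 2-fold lower, with a median log2 ratio of 0.44. Fasn had 7.01 and 100.2 TPM and Elovl6 0.29 and 5.23 TPM, while Acacb had 84.1 and 92.7 TPM, Gpam 52.9 and 70.7 TPM and Lpin1 69.4 and 64.3 TPM. The transcription factors of the same list were lower in replicate 2, Srebf1 with 19.0 and 14.2 TPM and Mlxipl with 13.4 and 10.3 TPM. Among adipogenic regulators 4 of 14 were 2-fold or more higher, at a median of 0.083. They were Cebpa with 2.03 and 8.75 TPM, Cebpb with 18.3 and 62.1 TPM, Cebpd with 1.47 and 3.97 TPM and Klf15 with 13.8 and 34.9 TPM. Pparg, the master regulator of fat cells, had 4.25 and 7.38 TPM, Rxrg 29.4 and 26.9 TPM, Stat5b 23.9 and 21.4 TPM and Ppargc1b 16.1 and 11.4 TPM.

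In the list of droplet and lipolysis genes most were level, with 1 of 16 at 2-fold or more in each direction and a median log2 ratio of -0.014. The hormone-sensitive lipase gene Lipe was counted with the adipocyte genes above and not in this list. It was higher in replicate 2, with 12.6 and 29.2 TPM, a count fold of 2.30 (2.14 to 2.49). Lpl, which frees fatty acids from lipoproteins, had 1749 and 1576 TPM, the fatty acid transporter Cd36 756 and 750 TPM, and the lipase gene Pnpla2 180 and 220 TPM. Angptl4, an inhibitor of Lpl, was higher with 0.77 and 4.76 TPM, and Bscl2 had 6.83 and 12.5 TPM. G0s2, an inhibitor of Pnpla2, was lower with 53.0 and 19.2 TPM.

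In the list of thermogenic signalling 3 of 12 genes were 2-fold or more higher, at a median of 0.065. Prkar2b, the protein kinase A subunit of fat, had 1.88 and 13.4 TPM and Klb, the co-receptor for Fgf21, 0.05 and 0.65 TPM, and the third was Adrb3. The cardiac receptor Adrb1 had 10.1 and 6.05 TPM, Fgfr1 11.9 and 8.45 TPM, Prkaca 119 and 127 TPM, Thra 37.8 and 38.8 TPM and Thrb 11.9 and 11.6 TPM. The receptors of adiponectin did not follow the hormone. The adiponectin receptors Adipor1 and Adipor2 had 49.7 and 50.2 TPM and 24.8 and 33.7 TPM, and Cdh13, which binds adiponectin on the cell surface, had 62.7 and 65.4 TPM. The insulin receptor Insr had 54.5 and 53.4 TPM. Of the 9 genes in the list of fat hormones and receptors, Rbp4, a retinol carrier, was 2-fold or more higher with 1.28 and 2.83 TPM. Aplnr was lower with 6.72 and 2.2 TPM, while Apln had 1.95 and 1.77 TPM.

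In each family the gene with the highest ratio was one of the 10, as their choice implies. Of the uncoupling proteins, Ucp2 had 108 and 147 TPM, Ucp3 12.7 and 17.1 TPM, Slc25a14 1.15 and 1.35 TPM and Slc25a27 0.84 and 1.24 TPM, so Ucp1 was below Ucp3 in replicate 1 and above it in replicate 2. Among perilipins, Plin2 had 49.0 and 45.0 TPM, Plin3 82.1 and 73.9 TPM and Plin5, the form of oxidative tissues, 57.4 and 64.6 TPM, and Plin1 was the lowest in both libraries. Cideb had 0.97 and 0.76 TPM. The mitochondrial Pck2 had 2.98 and 3.66 TPM, close to Pck1 in replicate 1 and far below it in replicate 2.

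Of 15 other carbonic anhydrases 2 were 2-fold or more higher in replicate 2, Car5b, a mitochondrial form, with 0.46 and 1.95 TPM and Car6 with 0 and 3 counts, which is at the floor. Car14 was the most abundant of them with 67.8 and 53.2 TPM. Of the others, Car4 had 7.79 and 11.3 TPM, Car2 4.39 and 3.09 TPM, Car8 3.93 and 3.02 TPM and Car11 3.02 and 2.31 TPM, the rest reached at most 1.08 TPM in a library, and Car1 and Car10 had 0 counts. Of 3 resistin-like genes, all with low counts, 1 was 2-fold or more higher in replicate 2 and 1 was 2-fold or more lower. Retnla was higher, with 9 and 22 counts and a log2 ratio of 1.11. Retnlg was lower, with 4 and 0 counts, and Retnlb had 0 counts in both libraries.

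Cfd acts in the alternative complement pathway, where it cleaves factor B. Factor B, Cfb, had 2.10 and 5.34 TPM, a count fold of 3.02 (2.41 to 3.81), and was the 1 of 7 other pathway genes examined at 2-fold or more. C3 had 41.0 and 75.4 TPM and Cfp, properdin, 2.26 and 4.58 TPM. The regulator Cd55, with 2.92 and 4.37 TPM, and the protease Masp1, with 6.53 and 5.22 TPM, differed less, and Cfi had 0.27 and 0.31 TPM and Cd46 0.33 and 0.22 TPM. The macrophage markers Lyz2 and C1qa had 46.9 and 86.9 TPM and 15.6 and 17.3 TPM, with 0 of 6 macrophage markers at 2-fold, and their part in the complement levels was not tested.

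**Figure D5:**
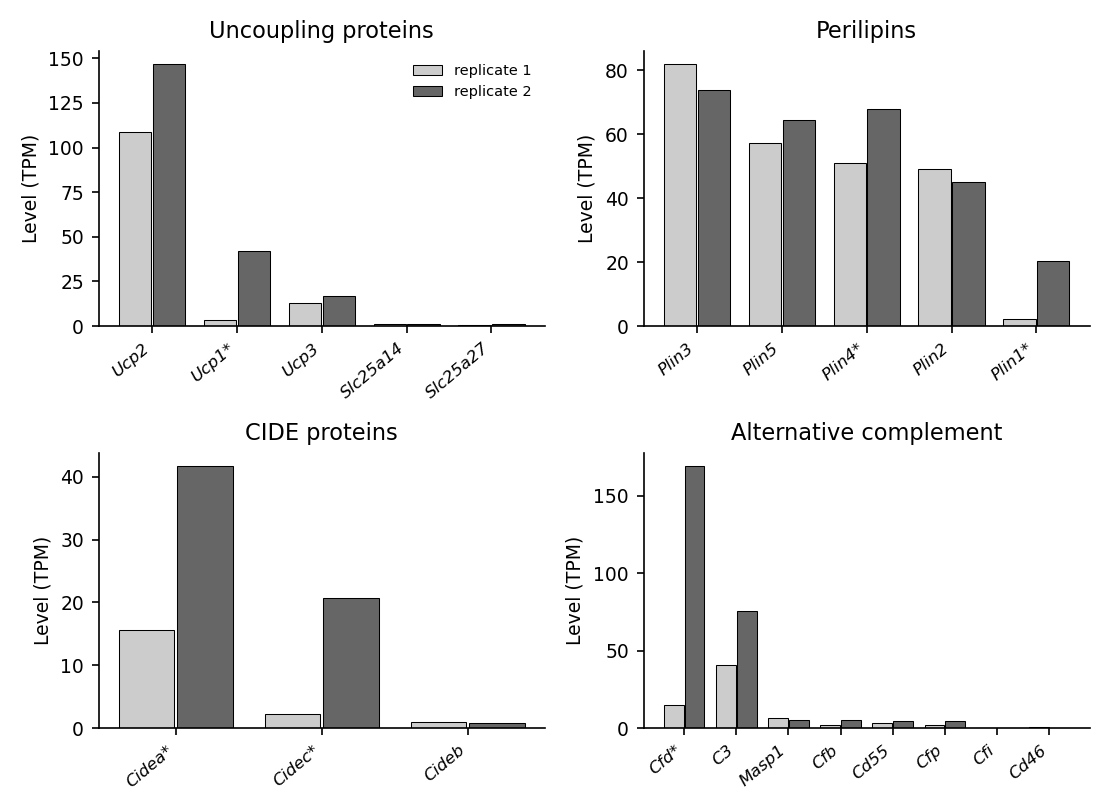
Level in TPM (y axis from 0) of the uncoupling proteins, perilipins, CIDE proteins and alternative complement genes in replicate 1 (light bars) and replicate 2 (dark bars), 1 library a bar, with members marked by an asterisk. Ucp1, Plin1, Cidec and Cfd are far higher in replicate 2, while Plin3 and Plin5 are nearly level.

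Markers of the supporting cells of fat did not reach 2-fold in either direction. Of the 11341 protein-coding genes with a mean of 1 TPM or more, 53.8% were higher in replicate 2 by any amount. All 8 stromal and progenitor markers were higher in replicate 2, but 0 of 8 reached 2-fold. The summed level of these markers was 233.9 and 261.9 TPM. Dcn had 135 and 142 TPM and Ly6a 39.3 and 51.2 TPM. Of 6 endothelial markers 1 was higher, Aqp1 with 94.3 and 160.3 TPM, while Vwf had 44.7 and 40.3 TPM. The log2 ratios of the 6 ran from -0.79 to 0.76. All 6 mesothelial markers were higher and 0 reached 2-fold, with 18.2 and 27.3 TPM in sum, led by Upk3b and Msln. These cells also belong to the heart, and whether their RNA came from fat was not tested.

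With 2 libraries, likeness to the members could be measured only by the ratio between them. Among 7470 other protein-coding genes with a mean of 5 TPM or more and 100 counts or more, 9 exceeded the members' median ratio of 3.14. The 10 nearest to it included Hp, haptoglobin, with a log2 ratio of 3.11, Cdo1 with 2.98, Cyp2e1 with 2.84 and the desaturase Scd1 with 3.51. Next came Prkar2b with 2.77, Arrdc2 with 2.70, the glycogen phosphorylase Pygl with 2.66 and the transketolase Tkt with 2.60. The last were Cbr2 with 2.58 and the citrate carrier Slc25a1 with 2.52. Besides Scd1, the 9 genes above the median were the airway markers Bpifa1, Scgb1a1, Scgb3a2, Reg3g, Scgb3a1 and Cyp2f2, with Glycam1 and Fasn.

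The members were read from few transcripts and shared little sequence with other genes. In the RSEM-layout table the leading transcript took over 90% of the TPM in 6 of 10 genes. Ucp1 and Cidea have 1 annotated form each. The leader took 99.7% ± 0.40 (SD, n = 2) in Car3, 94.0% ± 6.7 in Pck1, 68.9% ± 3.3 in Adipoq and 67.2% ± 3.1 in Cidec. The leader was the same in the kallisto-layout table for 8 of 10 genes. The exceptions were Adipoq, where a transcript of 539 nt led there with 50.6%, and Plin1, where one of 2817 nt took 49.5% ± 0.88 in the RSEM-layout table and one of 647 nt led with 38.3% in the other. The Plin4 transcripts, of 5755 and 5756 nt, differ by 1 base near their 5′ end, so their split is uncertain. For 6 members no 31-nt word of the leading transcript occurred in another gene. The share was 5.92% in Retn, 2.91% in Plin1, 0.534% in Pck1 and 0.0606% in Car3. Plin4 repeats itself, with 4786 different words at 5726 positions. Genes on the opposite strand overlapped Plin4 by 17 bases and Cidea by 500 bases, the latter a noncoding gene with 17 and 21 counts.

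In the kallisto-layout table the members had nearly the same ratios but other levels. Adipoq had 3.06 and 33.8 TPM, Cidec 3.82 and 32.1 TPM, Plin1 3.31 and 27.3 TPM and Cidea 19.3 and 54.9 TPM. Retn was lower there, with 0.48 TPM from 8 counts and 4.70 TPM from 80 counts. Ucp1 had 3.35 and 42.8 TPM, Pck1 2.49 and 46.1 TPM, Car3 13.9 and 100.2 TPM, Plin4 53.9 and 75.5 TPM and Cfd 17.8 and 200.4 TPM. The log2 ratio was 3.64 for Ucp1, 3.05 for Retn and 1.5 for Cidea, so Cidea again had the lower ratio of the brown genes. In replicate 2 the level of Cidea was above those of Pck1 and Ucp1 there. The equal level of the brown genes and the order given above therefore did not hold in that table.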

How the data were processed

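The 2 libraries were compared with the gene and transcript tables of each. Expected counts and TPM were deposited by the authors in tables with the column layout of RSEM, computed from transcriptome alignments, per the deposited readme. Estimated counts and TPM of a second transcript table, in the layout of kallisto, were deposited by the authors from the reads. Isoform shares are a percent of each gene's TPM, as deposited. Build mm10 and GENCODE M21 are named, and the sources used here do not give programs or versions. TPM is relative to all rows, spike-ins and mitochondrial genes included.

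Ratios were log2 of TPM + 0.1, replicate 2 over replicate 1. Count folds used expected counts rounded to whole numbers, divided by library totals, with exact conditional 95% intervals (SciPy 1.17.1). The intervals were tried on simulated counts that held counting error alone, which says nothing about the spread between samples. With 1 library a side no test was made. TMM factors came from edgeR 4.0.16. The members and the 228 symbols in 26 further lists and the member groups were chosen with earlier results of these data known. 1 symbol was matched by a synonym. Text names the members, their families, and of each other list the 3 most abundant and the 2 highest and lowest ratios at 0.5 TPM or more (of marker lists the 2 most abundant), with Lep, and a few further genes named after their values were seen. Alternatives were other pseudocounts, tables, estimates and scalings, and leaving out a replicate. 1 further gene of the complement pathway is not reported here.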

Additional observations from a re-analysis of the deposited data

How the results depend on the processing

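The direction and size of the members' difference held under the alternatives that were run. The median log2 ratio of the 10 genes ranged from 2.76 with a pseudocount of 1 TPM to 3.22 with TPM rescaled to nuclear protein-coding genes, and 9 of 10 were 2-fold or more higher under each of the 8 settings. Of 80 recomputed ratios of single members 72 moved by less than their counting interval and 8 by more, 6 of these with a pseudocount of 1 TPM, and none changed sign. The spread of the ratio was 2.04 to 3.05 for Retn, the lowest member, and 0.39 to 0.49 for Plin4. The comparison of brown with other genes was less stable. The brown genes were 0.26 above Retn with a pseudocount of 1 TPM and below it under the other 7 settings; that pseudocount lowers the ratio of low genes such as Retn most. Against the shared genes the difference was 0.62 with Ucp1 alone and -0.86 without Plin4, both chosen after seeing the data. Without a replicate the level is that of the other library, given for each gene above. Over genes with any TPM, 6.05% were 2-fold or more higher. The leading transcript's share moved beyond its spread in the kallisto-layout table for 5 of 10 genes. No paired analysis was possible because there is 1 group. Depth set the widest count interval among the members, that of Retn with 20 counts in replicate 1.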
